A study of Homo sapiens with 6 samples.

Results

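Inflammatory cytokines and chemokines are secreted proteins that glioma cells use to signal to themselves and to recruit and maintain myeloid cells. The set described here holds 10 genes, picked by symbol with earlier results of these data known: CSF1, CCL2, CXCL1, CXCL2, CXCL3, CXCL8, IL6, IL11, LIF and IL1B. All 10 are among the 57133 gene symbols of the deposited count table, and 7 of the 10 passed the filter on low counts that left 14461 genes for testing. RNA-seq was performed in T98G, an established human glioblastoma (GBM) cell line, in which CBX8 had been disrupted by CRISPR/Cas9. CBX8 is a chromobox subunit of Polycomb repressive complex 1 (PRC1), a complex that represses transcription at chromatin carrying H3K27me3. Of the 6 libraries, 3 came from the CBX8 KO line with the empty doxycycline-inducible vector (CBX8 KO) and 3 from the same KO line carrying the vector with wild-type CBX8 (WT CBX8 re-expression). All 6 were given doxycycline at 1 μg/ml for 72 h, so both conditions share the CRISPR knockout, the stable vector and the drug. The labels give the re-expression libraries a wild-type genotype, whereas the titles and the study's methods describe CBX8 put back into KO cells, and the titles were followed. The methods do not state whether the KO line was a single clone, and because each vector was introduced into its own stably selected line, an effect of CBX8 and a difference between these lines cannot be told apart. No parental T98G library was analysed here, so levels in cells with endogenous CBX8 are not known. The comparison asks which genes differ when CBX8 is put back, and fold changes are given as WT CBX8 re-expression over CBX8 KO.

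As background, the members act through several receptor families. CSF1 binds the receptor tyrosine kinase CSF1R and maintains macrophages and microglia, CCL2 attracts monocytes through CCR2, and CXCL1, CXCL2, CXCL3 and CXCL8 attract neutrophils through CXCR2, with CXCL8 also binding CXCR1. IL6 and IL11 bind their own receptor subunits and LIF binds LIFR, which other ligands of the family also use, and all signal through the shared subunit gp130 (IL6ST) to JAK kinases and STAT3. IL1B is made as an inactive precursor and, after cleavage by caspase-1, activates NF-κB, the transcription factor that induces many of the other members.

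Total counts lay between 7950190 and 8551956 in the CBX8 KO libraries and between 8262932 and 8659796 in the WT CBX8 re-expression libraries. CBX8 itself had 96, 104 and 83 counts in CBX8 KO and 30372, 31408 and 27791 upon re-expression, in the direction of the labels. This is a log2 fold change of 8.22, and how the re-expressed level compares with endogenous CBX8 is not known. The paper describes its CBX8 vectors as carrying an N-terminal V5 tag. Of the 15 immune cell markers examined, 5 had no count in any library, among them AIF1, LYZ, TYROBP and MS4A1, and PTPRC (CD45) had at most 4. The summed immune marker level was 11.9 to 14.3 CPM (counts scaled by TMM-adjusted library size) in CBX8 KO libraries and 12.1 to 14.4 CPM in re-expression libraries, most of it from ITGAX. The 5 endothelial markers summed to at most 1.07 CPM in any library. Of 12 glioblastoma line markers, VIM, CD44, FN1, EGFR and TNC were high (VIM at 2730 ± 31.6 CPM in CBX8 KO, SD, n = 3). GFAP and OLIG2 were near 2 to 3 CPM. NES had at most 4 counts in a library and CHI3L1 at most 10, and SOX2, S100B and AQP4 had no count. The counting program and its settings are not given, and whether a count of 0 here means absent mRNA was not tested. Of the 7 glioblastoma line markers that were tested, CD44 was called lower and TNC and FN1 higher upon re-expression. Over all tested genes 6.63% were called lower and 6.23% higher. The part of these marker changes in the results below was not tested. Nothing in the labels tells whether replicate libraries were separate cultures, so errors and p-values here measure the spread between these libraries, which may be technical.

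CSF1 and CCL2 mRNA fell upon WT CBX8 re-expression, and no member rose past the threshold. CSF1 mRNA fell by 30.5% and CCL2 mRNA fell by 38.0%. The remaining 5 tested members, IL6, CXCL8, LIF, IL11 and IL1B, did not pass an adjusted p of 0.05 in edgeR's quasi-likelihood test. CXCL3, CXCL1 and CXCL2 had too few counts to test. Thus 2 of 7 tested members were called lower and 0 higher, whereas over all 14461 tested genes 6.63% were called lower, 6.23% higher and 12.9% in either direction. For 4 of the 7 members CPM values did not overlap between conditions, against 28.9% of all tested genes. The median log2 fold change was -0.23 over the 7 members and 0.00493 over all tested genes, and with 7 genes no property of the set is read from these shares. With library size scaling alone, 592 of all tested genes were lower and 1400 higher in place of 959 and 901, and CSF1 and CCL2 were still called. As the RNA is bulk, less mRNA per cell and fewer expressing cells cannot be told apart. At an unadjusted p under 0.05, IL6 and IL11 joined CSF1 and CCL2.

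**Figure D1:**
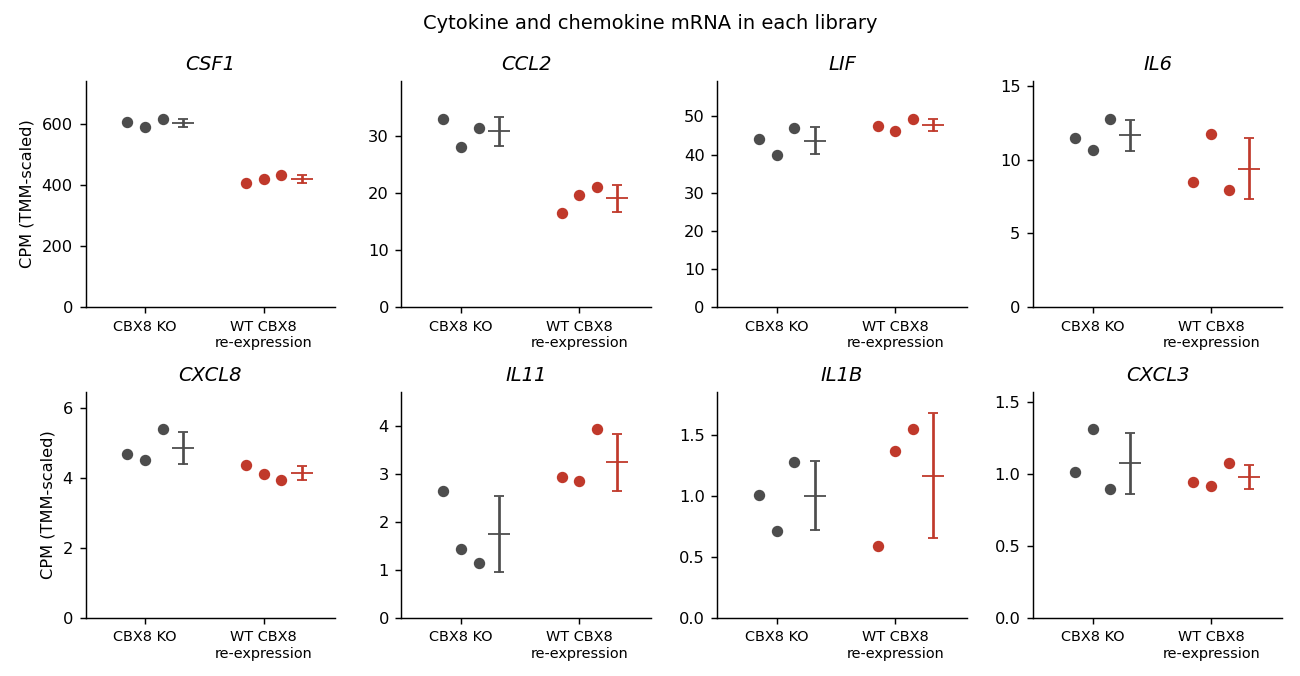
CPM of 8 members in each library, with CBX8 KO in grey and WT CBX8 re-expression in red. Points are the 3 libraries of a condition, horizontal marks with bars are their mean and SD, and every vertical axis starts at 0. The conditions are fully separated for CSF1, CCL2, CXCL8 and IL11 and overlap for LIF, IL6, IL1B and CXCL3. CXCL1 and CXCL2, with 1 and 0 counts in all, are not drawn.

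Levels of different genes were compared as CPM per kb of canonical transcript. In CBX8 KO cells CSF1 was the most abundant member at 151 ± 3.27 CPM per kb (SD, n = 3), followed by CCL2 at 41.5 ± 3.36. LIF (11.3 ± 0.915) and IL6 (10.4 ± 0.943) came next and did not differ beyond their spread in CBX8 KO. CXCL8 lay lower at 2.96 ± 0.279. CXCL3 (0.996 ± 0.197), IL11 (0.733 ± 0.336) and IL1B (0.664 ± 0.188) lay lower still and did not differ from each other beyond their spread. CXCL1 and CXCL2, at the detection limit, are left out of this order. Upon re-expression the order of the first 5 was the same, with CSF1 at 105 ± 3.26 and CCL2 at 25.7 ± 3.12 CPM per kb. LIF then stood at 12.3 ± 0.409 against 8.34 ± 1.83 for IL6. IL11, at 1.36 ± 0.251 CPM per kb, stood above CXCL3 (0.907 ± 0.0785), with IL1B at 0.776 ± 0.339. In CPM, CSF1 alone made up 86.1 to 87.2% of the summed level of the 10 members in CBX8 KO and 82.9 to 83.3% upon re-expression.

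**Figure D2:**
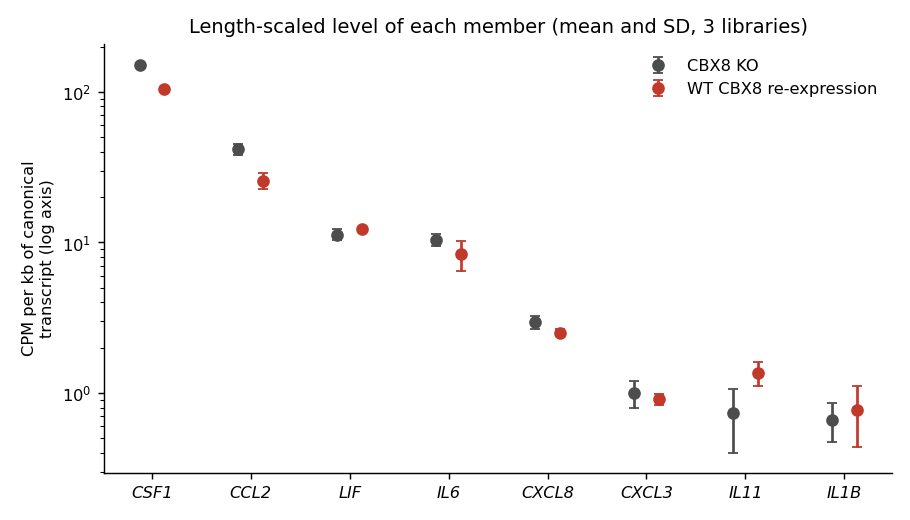
Length-scaled level of 8 members on a log axis, in CPM per kb of canonical transcript. Points are means of 3 libraries and bars are the SD, with CBX8 KO in grey and WT CBX8 re-expression in red. CSF1 and CCL2 lead in both conditions, and the levels drawn span from 151 down to 0.664 CPM per kb in CBX8 KO. CXCL1 and CXCL2 are not drawn.

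CSF1 (ENSG00000184371.14, hg38 chromosome 1 from 109910242 to 109930992, plus strand, 9 exons in the canonical transcript) encodes macrophage colony-stimulating factor. The CBX8 KO libraries held 4787, 4967 and 4815 counts, and the re-expression libraries held 3453, 3680 and 3627. The conditions do not overlap, and the gap between them is wider than the range within either. In CPM it fell from 604 ± 13.1 to 419 ± 13.0 (SD, n = 3 each). The log2 fold change was -0.53 (standard error 0.05, 95% interval -0.62 to -0.43, edgeR adjusted p = 1.1e-08). No exon of another GENCODE gene overlaps CSF1. Its receptor CSF1R had 11, 15 and 22 counts in CBX8 KO and 14, 24 and 19 upon re-expression, a log2 fold change of 0.16 (95% interval -0.50 to 0.81, adjusted p = 0.81 in edgeR). IL34, the other ligand of CSF1R, had too few counts to test.

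CCL2 (ENSG00000108691.10, chromosome 17 from 34255274 to 34257208, plus strand, 3 exons) encodes the monocyte chemoattractant MCP-1. Its counts were 261, 236 and 244 in CBX8 KO and 140, 172 and 176 upon re-expression. Every re-expression library lay below every CBX8 KO library, and re-expression replicate 1 was the lowest. CCL2 fell from 30.7 ± 2.49 to 19.0 ± 2.31 CPM (SD, n = 3 each). The log2 fold change was -0.69 (standard error 0.10, 95% interval -0.90 to -0.48, edgeR adjusted p = 3.1e-05). Its receptor CCR2 had 1 count in 1 CBX8 KO library and 0 in the others. The neighbouring CC chemokine genes CCL7 and CCL8 had 3 and 5 counts over all 6 libraries and were not tested. CSF1 and CCL2 kept their call with DESeq2, limma voom, every scaling and filter tried, the replicate block and with any 1 library removed, with log2 fold changes from -0.55 to -0.47 for CSF1 and from -0.77 to -0.60 for CCL2.

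The 4 CXC chemokine members lie in the chemokine cluster of chromosome 4, and among them only CXCL8 had enough counts to test. CXCL8 (ENSG00000169429.12, from 73740519 to 73743716, plus strand), which encodes interleukin-8, had 37, 38 and 42 counts in CBX8 KO and 37, 36 and 33 upon re-expression. In CPM the re-expression libraries all lay below the CBX8 KO libraries (4.13 ± 0.211 against 4.85 ± 0.459, SD, n = 3 each). The difference did not pass the test, with a log2 fold change of -0.23 (95% interval -0.64 to 0.18, edgeR adjusted p = 0.52), and this interval still includes a change of the size seen for CSF1. CXCL3 (ENSG00000163734.4, from 74036589 to 74038807, minus strand) gave 8, 11 and 7 counts in CBX8 KO and 8, 8 and 9 upon re-expression, 26 against 25 in all. CXCL1 (ENSG00000163739.5, from 73869393 to 73871308, plus strand) had 1 count in CBX8 KO replicate 1 and 0 in the other 5 libraries. CXCL2 (ENSG00000081041.9, from 74097040 to 74099196, minus strand) gave 0 counts in all 6. A count of 0 over the 3 libraries of a condition, taken as up to 3 counts, allows a level of up to 0.124 CPM for CBX8 KO and of 0.117 CPM for re-expression, counting error only. CXCL1, CXCL2 and CXCL3 are close paralogs, with 83.7% identity between the canonical transcripts of CXCL1 and CXCL2, 69.2% between CXCL1 and CXCL3, and 73.0% between CXCL2 and CXCL3. Still, 0 of the 100-base windows of any member's canonical transcript, the length of the sequencing reads, occurred exactly in a GENCODE transcript of another gene. The receptors CXCR1 and CXCR2 had 0 and 1 counts over all libraries.

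Within the cluster the stretches just before the start site are alike for CXCL1, CXCL2 and CXCL3, but not for CXCL8. The 120 bases just before the RefSeq start site (GRCh38.p14), written 5′ to 3′ on the strand of the gene, are given for the 4 CXC members and for IL6, because CXCL1 and CXCL2 were at the detection limit while CXCL8 and IL6 were measured in the same libraries. Capitals mark the NF-κB word, GGGA and TTCC with any 2 bases between them, on either strand. Only exact matches are marked, and the CXCL8 stretch holds tggaatttcc, which differs from the word in its first base alone.
CXCL1 (chr4:73869273-73869392, plus strand): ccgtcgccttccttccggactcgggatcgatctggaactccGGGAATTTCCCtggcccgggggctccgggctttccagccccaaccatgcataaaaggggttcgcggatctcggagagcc
CXCL2 (chr4:74099196-74099315, minus strand): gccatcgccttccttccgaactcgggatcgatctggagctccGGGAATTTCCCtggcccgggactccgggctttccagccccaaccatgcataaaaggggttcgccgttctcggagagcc
CXCL3 (chr4:74038690-74038809, minus strand): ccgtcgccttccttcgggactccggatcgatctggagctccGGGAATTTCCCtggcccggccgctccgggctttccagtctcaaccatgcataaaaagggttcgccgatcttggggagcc
CXCL8 (chr4:73740449-73740568, plus strand): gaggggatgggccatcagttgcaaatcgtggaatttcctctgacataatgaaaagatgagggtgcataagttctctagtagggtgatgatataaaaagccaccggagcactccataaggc
IL6 (chr7:22727080-22727199, plus strand): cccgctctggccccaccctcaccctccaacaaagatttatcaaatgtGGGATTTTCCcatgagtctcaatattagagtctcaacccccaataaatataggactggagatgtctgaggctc

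These stretches are 93.4% identical between CXCL1 and CXCL2, 90.8% between CXCL1 and CXCL3, and 46.1% between CXCL1 and CXCL8. In CXCL1, CXCL2 and CXCL3 the word is read on both strands, as a pair of overlapping matches that begin 79 and 78 bases (78 and 77 in CXCL2) before the start site, and in IL6 it begins 73 bases before it. RefSeq promoter sequence was matched for 7 of the 10 members, not for CSF1, CCL2 or LIF. Over the 250 bases before the start site, 4 of these 7 held the NF-κB word, against 1.40% of 35116 RefSeq promoters of the same length. CXCL1, CXCL2 and CXCL3 are not separate cases, since the stretches that hold the word are nearly identical. The members were picked as cytokines, many of them induced by NF-κB, so this contrast is not a test. The AP-1 word TGANTCA, where N is any base, was found for CXCL8 and IL11, against 6.57% of promoters, and the C/EBP word (TTGC and AA with any 2 bases between them, on either strand) for IL6, CXCL2 and IL1B, against 9.05%. CpG dinucleotides, which mark the promoters where Polycomb complexes are commonly found, numbered 18, 20, 19 and 16 for CXCL1, CXCL2, CXCL3 and IL11, but 4, 4 and 1 for CXCL8, IL6 and IL1B. Of all promoters, 36.8% held at least the 18 of CXCL1 and 93.9% at least the 1 of IL1B. These words are exact matches of letters, so a promoter without one may still hold a looser form of the site. They say nothing of binding in T98G cells.

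None of the 3 IL-6 family members passed the threshold, and they did not lean the same way. IL6 (ENSG00000136244.12, chromosome 7 from 22725884 to 22732002, plus strand) encodes interleukin-6 and had 91, 90 and 100 counts in CBX8 KO and 72, 103 and 67 upon re-expression. Replicate 2 of the re-expression libraries lay within the CBX8 KO range in CPM, and the other two lay below it. The log2 fold change of IL6 was -0.30 (standard error 0.15, 95% interval -0.61 to -0.0025, unadjusted p = 0.048 and adjusted p = 0.19 in edgeR). With 1 library left out its log2 fold change moved from -0.50 without re-expression replicate 2 (edgeR adjusted p = 0.051) to -0.20 without re-expression replicate 3 (edgeR adjusted p = 0.48). LIF (ENSG00000128342.5, chromosome 22 from 30240453 to 30246759, minus strand), leukaemia inhibitory factor, had 349, 336 and 367 counts in CBX8 KO and 404, 405 and 415 upon re-expression. After scaling the conditions overlapped, at 43.6 ± 3.54 and 47.7 ± 1.58 CPM (SD, n = 3 each), with a log2 fold change of 0.13 (95% interval -0.03 to 0.29, edgeR adjusted p = 0.30). IL11 (ENSG00000095752.7, chromosome 19 from 55364382 to 55370463, minus strand) gave 21, 12 and 9 counts in CBX8 KO and 25, 25 and 33 upon re-expression. All re-expression libraries lay above all CBX8 KO libraries, and CBX8 KO replicate 1 was closest to them. The log2 fold change of IL11 was 0.89 (standard error 0.30, 95% interval 0.26 to 1.52), and its adjusted p of 0.054 in edgeR fell just short of the threshold. Without CBX8 KO replicate 1 it was 1.31 (edgeR adjusted p = 0.017), and it also passed with limma voom (0.043), with library size scaling (0.037) and without the count filter (0.035), but not with DESeq2 (0.27). Antisense genes overlap exons of IL6 (IL6-AS1) and LIF (LIF-AS1 and LIF-AS2), as does STEAP1B for IL6, and since the strand setting of the counting is not given, reads of these could not be told apart. No such overlap was found for IL11.

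IL1B (ENSG00000125538.12, chromosome 2 from 112829751 to 112836816, minus strand) was near the lower limit of what could be tested, with 8, 6 and 10 counts in CBX8 KO and 5, 12 and 13 upon re-expression. The libraries of both conditions overlapped, and re-expression replicate 1 was the lowest of all 6. Its log2 fold change was 0.23 with a 95% interval from -0.65 to 1.11 (edgeR adjusted p = 0.80), so a change of either sign as large as that of CSF1 was not detectable at this depth. Its precursor-cleaving protease CASP1 fell from 21.6 ± 1.31 to 16.2 ± 2.07 CPM (log2 fold change -0.41, edgeR adjusted p = 0.012), and it lost that call without CBX8 KO replicate 1 (0.056), without re-expression replicate 3 (0.087) and with DESeq2 (0.081). Of 7 tested genes of cytokine processing and release CASP1 alone passed the threshold, a share near the 12.9% of all tested genes.

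**Figure D3:**
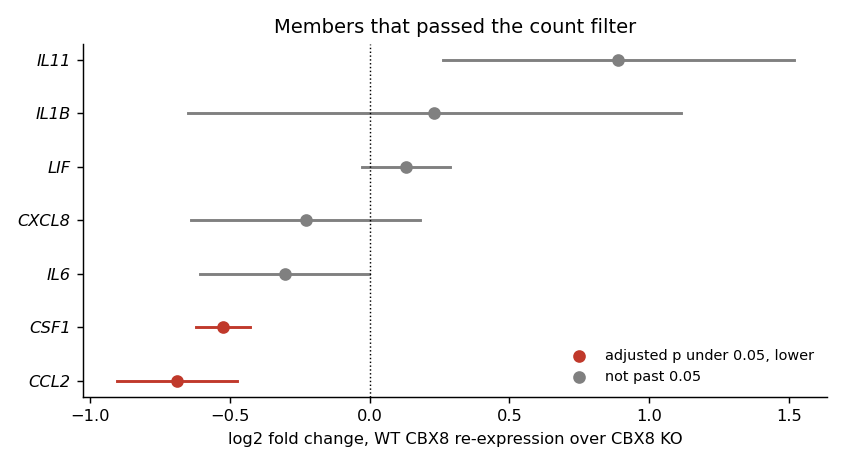
Log2 fold change of the 7 members that passed the count filter, WT CBX8 re-expression over CBX8 KO, with points for the estimate and lines for the 95% interval from edgeR's quasi-likelihood fit. Red marks an adjusted p under 0.05 and grey marks members that did not pass. CCL2 (-0.69) and CSF1 (-0.53) lie wholly below 0. IL6 (-0.30) also lies below 0, with an upper end of -0.0025, without passing adjustment. IL11 (0.89) has an interval above 0 without passing adjustment, and IL1B has the widest interval.

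Receptors of the IL-6 family changed in opposite directions. Of 17 receptor and decoy genes, 9 were tested, with 2 called lower and 2 higher, beside 6.63% and 6.23% of all tested genes. LIFR, the LIF receptor subunit, fell from 119 ± 3.93 to 91.3 ± 7.27 CPM (log2 fold change -0.38, edgeR adjusted p = 4.8e-05). OSMR, the gp130 partner for oncostatin M, fell from 219 ± 5.40 to 183 ± 7.51 CPM (-0.26, edgeR adjusted p = 0.00067). IL11RA, the receptor subunit for IL11, rose from 3.15 ± 0.450 to 6.14 ± 0.873 CPM (0.96, edgeR adjusted p = 0.0022), with 29, 25 and 22 counts in CBX8 KO and 51, 62 and 45 upon re-expression. IL6R rose from 5.09 ± 1.42 to 8.15 ± 0.640 CPM (0.69, edgeR adjusted p = 0.012). The IL6R call was lost without CBX8 KO replicate 2 (log2 fold change 0.49, adjusted p = 0.12) and with DESeq2 (0.11), whereas the other 3 receptor calls held without any 1 library. The shared subunit IL6ST was far more abundant, at 890 ± 67.6 and 813 ± 56.1 CPM, with a log2 fold change of -0.13 (edgeR adjusted p = 0.14). It passed without CBX8 KO replicate 3 (adjusted p = 0.049), without re-expression replicate 3 (0.038) and without the count filter (0.040). Its log2 fold change was -0.07 without CBX8 KO replicate 1 (edgeR adjusted p = 0.51), -0.09 without re-expression replicate 1 (0.39) and -0.08 with library size scaling (0.40). IL1R1 had a log2 fold change of 0.29 (edgeR adjusted p = 0.052), with all re-expression libraries above all CBX8 KO libraries, and it passed without re-expression replicate 1 (adjusted p = 0.026) and with library size scaling (0.018). Without re-expression replicate 3 it was 0.19 (edgeR adjusted p = 0.28). The scavenger receptor ACKR3 stood at -0.48 (95% interval -1.03 to 0.07, edgeR adjusted p = 0.27). The IL-1 receptor antagonist IL1RN had no count.

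Downstream of gp130, 1 of 13 tested genes passed, a share near the 12.9% of all tested genes. SOCS3, the STAT3-induced feedback inhibitor, rose from 31.9 ± 1.10 to 38.7 ± 0.868 CPM (log2 fold change 0.28, edgeR adjusted p = 0.021). The SOCS3 call was lost without CBX8 KO replicate 2 (adjusted p = 0.10), re-expression replicate 2 (0.056) or re-expression replicate 3 (0.067), and with DESeq2 (0.14). STAT3 itself was at 194 ± 2.30 and 197 ± 1.94 CPM, a log2 fold change of 0.02 with a 95% interval from -0.07 to 0.12.

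Of 23 tested transducers of the NF-κB pathway, 2 were called lower and 0 higher, with a median log2 fold change of -0.04. The share called lower is near the 6.63% of all tested genes, and nothing about the pathway is read from it. MAP3K14, the kinase NIK of the non-canonical branch, fell from 249.9 ± 10.7 to 195 ± 3.74 CPM (log2 fold change -0.36, edgeR adjusted p = 9.2e-06). IKBKG, the regulatory subunit NEMO of the IκB kinase, was lower by a log2 fold change of -0.27 (edgeR adjusted p = 0.024), a call lost without CBX8 KO replicate 2 (0.14), re-expression replicate 1 (0.10) or re-expression replicate 2 (0.053), with DESeq2 (0.10) and with library size scaling (0.079). The subunits NFKB1 (log2 fold change -0.06, edgeR adjusted p = 0.71) and RELA (-0.05, edgeR adjusted p = 0.65) did not pass.

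Among feedback and target genes of NF-κB, 5 of 20 tested were called lower and 0 higher, and the list median was -0.12, beside 6.63% lower, 6.23% higher and a median of 0.00493 over all tested genes. CEBPD, a transcription factor that cooperates with NF-κB at cytokine genes, fell from 82.7 ± 1.42 to 52.6 ± 6.80 CPM (log2 fold change -0.65, edgeR adjusted p = 2.3e-07). SOD2, the mitochondrial superoxide dismutase, fell by 0.32 on the log2 scale (edgeR adjusted p = 0.00017) and TNIP1, a partner of the NF-κB inhibitor A20, by 0.28 (edgeR adjusted p = 0.00045). These 3 calls held without any 1 library. TNFAIP3, which encodes A20, had 39, 55 and 53 counts in CBX8 KO and 33, 33 and 28 upon re-expression (log2 fold change -0.73, edgeR adjusted p = 0.015). Its call was lost without CBX8 KO replicate 2 (0.080), CBX8 KO replicate 3 (0.068) or re-expression replicate 3 (0.057), and with DESeq2 (0.12). PTGS2, the inducible cyclooxygenase, had the lowest estimate (-0.86, edgeR adjusted p = 0.049), overlapped between conditions, and lost its call in 4 of the 6 fits without 1 library (without CBX8 KO replicate 2 or 3, or re-expression replicate 1 or 2, adjusted p from 0.11 to 0.19), with DESeq2 (0.23) and with library size scaling (0.063). NFKBIA, which encodes IκBα and is rapidly induced by NF-κB, was at -0.20 (edgeR adjusted p = 0.16). The share of these genes called lower was not tested against other genes.

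**Figure D4:**
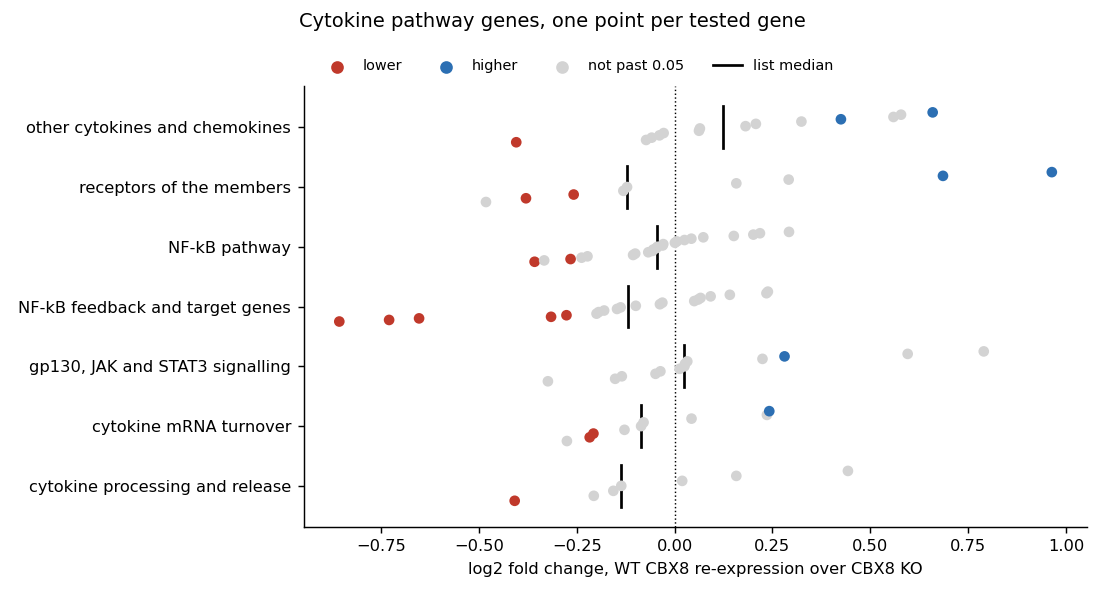
Log2 fold change of each tested gene in 7 lists around the members, WT CBX8 re-expression over CBX8 KO. Each point is a gene, red for lower and blue for higher at an adjusted p under 0.05, grey otherwise, and black bars are list medians. All 5 called genes of the NF-κB feedback and target list lie below 0, while receptor genes were called on both sides.

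Other secreted cytokines showed no common direction. Of 36 further cytokine and chemokine genes, 14 were tested, 1 was called lower and 2 higher, beside 6.63% and 6.23% of all tested genes, and 8 had no count in any library, among them TNF, IL33, CSF3 and CXCL5. IL7, a lymphocyte growth factor, had a log2 fold change of -0.41 (edgeR adjusted p = 0.022) and IL32 of 0.66 (edgeR adjusted p = 0.016). Both of these calls were lost in at least 3 of the 6 fits without 1 library. For IL7 the adjusted p reached 0.091 without CBX8 KO replicate 1 or re-expression replicate 3, 0.084 without re-expression replicate 2 and 0.052 without CBX8 KO replicate 3, and it was 0.17 with DESeq2 and 0.051 with library size scaling. For IL32 it was 0.064 without CBX8 KO replicate 2, 0.068 without re-expression replicate 1 and 0.067 without re-expression replicate 3, and 0.15 with DESeq2. Of 9 tested regulators of cytokine mRNA stability, 2 were called lower and 1 higher, beside 6.63% and 6.23% of all tested genes. ZFP36L1 (log2 fold change -0.22, edgeR adjusted p = 0.0024) and KHSRP (-0.21, edgeR adjusted p = 0.0029), which both promote decay of AU-rich mRNAs, were called lower and RC3H2 (0.24, edgeR adjusted p = 0.0073) higher. The RC3H2 call was lost without CBX8 KO replicate 2 (0.054) or re-expression replicate 2 (0.063), and with DESeq2 (0.056).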

How the data were processed

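RNA-seq (poly(A), 100 bp paired-end reads) of 3 CBX8 KO and 3 WT CBX8 re-expression libraries was used, grouped by sample title. The authors deposited unnormalized counts for each gene symbol, made after FastQC, Trimmomatic and HiSat2 alignment to hg38. The counting program, its annotation, its strand setting and tool versions are not given in the sources used here, so reads of overlapping genes may have been assigned either way. Reads carry no molecular identifiers, so depth gives counting error only. In R 4.3.3, genes passing filterByExpr of edgeR 4.0.16 (14461 of 57133) were scaled by TMM and tested with estimateDisp, glmQLFit and glmQLFTest, condition being the only term, two-sided, with Benjamini-Hochberg adjustment over all tested genes and a threshold of 0.05. Standard errors are the absolute log2 fold change over the square root of F, and 95% intervals use the total degrees of freedom of the fit. The fit was tested on simulated data. CPM uses TMM-scaled library sizes.

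The members and gene lists were chosen with earlier results of these data known. The rule for named genes took all members, CBX8, the called genes of each list and 16 preset receptors and pathway genes. List counts include every member of a list, and 1 further cytokine gene called higher is not reported here. Alternatives were RLE and library size scaling, DESeq2 1.42.0, limma 3.58.1 voom, other filters, a threshold of 0.01, a replicate block and each library left out. Positions, transcript lengths and exon overlaps come from GENCODE 44 (hg38), upstream sequences from RefSeq (GRCh38.p14), and identities from a global alignment with Biopython 1.88. Libraries of a condition differed by more than counting noise (chi-square per degree of freedom 1.96 to 2.90), so none was treated as a duplicate deposit. This does not tell separate cultures from technical repeats.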

Additional observations from a re-analysis of the deposited data

How the results depend on the processing

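The 2 members called lower, CSF1 and CCL2, were called in all 14 alternatives. With edgeR, TMM scaling, the count filter and all 6 libraries no member was called higher, and 1 (IL11) was with library size scaling (log2 fold change 0.945, adjusted p = 0.037), limma voom (0.942, 0.043), no count filter (0.877, 0.035) and without CBX8 KO replicate 1 (1.31, 0.017). Leaving out 1 library gave 0 to 1 members called higher and moved IL11 between 0.673 and 1.31. IL1B, which was not called, changed sign to -0.0177 without re-expression replicate 3, with leave-one-out values up to 0.542, and DESeq2 gave it no adjusted p. The calls for IL6, CXCL8 and LIF were the same in every alternative.

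Over the 7 pathway lists, 13 genes were called lower and 6 higher, beside 959 and 901 of all 14461 tested genes. With library size scaling these were 10 and 9 (592 and 1400 over all tested genes). With DESeq2 they were 8 and 1 (664 and 417 of 14148), and at a threshold of 0.01 they were 8 and 2 (569 and 489 of 14461). The shares of the lists were not tested against other genes, and no direction is read from them. The stricter threshold lowers counts by construction, and for DESeq2 the cause was not tested. With 1 library left out, 10 to 14 were lower and 2 to 7 higher, the fewest higher without CBX8 KO replicate 2, followed by 3 without re-expression replicate 3. Over all tested genes 635 to 851 were then lower and 593 to 792 higher. Signs of genes that were not called changed for CSF1R (-0.0424 without CBX8 KO replicate 1, -0.0263 without re-expression replicate 2, between -0.0424 and 0.476 with 1 library left out) and RELA (0.00815 with library size scaling, 0.00275 without CBX8 KO replicate 3, between -0.0807 and 0.00275 with 1 library left out). Library size scaling moved the median of all tested genes to 0.0602.

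Libraries that share a replicate number did not deviate together (correlations of -0.11, -0.058 and -0.058 over 13491 genes), so the numbers were not taken as pairs. With the replicate block, CSF1 was at -0.525 (adjusted p = 8.2e-07), CCL2 at -0.692 (0.00024) and IL11 at 0.897 (0.081), and no member's call changed. Depth limits CXCL1, CXCL2, CXCL3 and IL1B, with at most 13 counts in a library.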

Other observations

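MIF, macrophage migration inhibitory factor, had 0 counts in all 6 libraries. Its exons, on chromosome 22 from 23894383 to 23895227 (hg38), overlap those of the antisense gene MIF-AS1 and of 2 further annotated genes, 1 of them on the same strand. SOX2 also had 0 counts in all 6 libraries. No exon of another GENCODE gene overlaps its exon, but whether SOX2 lies within an intron of another gene was not checked. MIF and SOX2 were singled out after their values were seen, and whether the MIF overlap bears on its count was not tested.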
